A study of Mus musculus with 2 samples.

Results

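Chondrogenic condensation cells are the limb mesenchyme cells that aggregate and begin to make cartilage, the template of the limb skeleton. Here they were picked out by their RNA in the hindlimbs of 2 mouse embryos of the FVB strain at E11.5 (embryonic day), profiled by droplet-based single-cell RNA sequencing. A mesenchyme gate kept barcodes with at least 1000 genes, at most 10% mitochondrial UMIs (unique molecular identifiers, the counted RNA molecules), at least 2 UMIs of the limb mesenchyme gene Prrx1 and under 2% globin UMIs. It kept no barcode with a UMI of Epcam, Cdh5, Lbx1 or Csf1r, which mark ectoderm, vessels, muscle precursors and macrophages. Members then had at least 4 Sox9 UMIs per 10000 UMIs, at least 3 UMIs summed over the cartilage matrix genes Col2a1, Col9a1, Col9a3 and Cnmd, and no UMI of Gsc or Barx2. These cells number 1288 of the 29393 barcodes of both libraries, with 1243 from dual-enSERT-1, called the first library here, and 45 from dual-enSERT-2, the second. They were 10.0% of the 12386 gated cells of dual-enSERT-1 (exact binomial 95% interval 9.51 to 10.6) and 1.20% of the 3750 of dual-enSERT-2 (0.877 to 1.60). Cells of dual-enSERT-2 were deeper, and with the rule applied at 5000 UMIs per cell the shares were 9.82% and 0.531%. They are compared mainly with gated cells with under 1 Sox9 UMI per 10000, called Sox9-low cells here, 6246 and 2736 cells.

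Each library came from the hindlimbs of 1 transgenic embryo, so each genotype has 1 library and no replicate. The dual-enSERT-1 embryo had the genotype H11 ZRS-mCherry/ZRS404G>A-eGFP. The genotype of the dual-enSERT-2 embryo has the same reporters at H11, with SI named between them and a B at either end. Both embryos therefore carried mCherry under the ZRS, an enhancer that drives Shh in the limb, and eGFP under the ZRS404G>A allele, beside their own Shh gene. The labels do not spell out B and SI. Genotype, embryo and preparation cannot be told apart, there is no embryo without reporters, so libraries were not tested against each other, nor were cells. The intervals given are 95% intervals and cover counting error only.

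Cartilage of the limb starts as condensations of mesenchyme, laid down first near the body wall and later toward the digits. The transcription factor Sox9 is needed for condensation, and with its partners Sox5 and Sox6 it activates the genes of cartilage matrix, such as Col2a1 (collagen II), Col9a1 (collagen IX), Cnmd (chondromodulin) and Matn4 (matrilin 4). BMP signals favour this step, whereas WNT and FGF signals from the ectoderm and its ridge hold cells in an undifferentiated, dividing state.

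The libraries stand apart. They held 20508 and 8885 barcodes with 298653282 and 184301053 UMIs. For each, 10000 cells were loaded, so dual-enSERT-1 held more barcodes than cells loaded. What this adds to doublets, free RNA or the shares of members was not tested. Median depth of members was 12807 UMIs in the first library and 27395 in the second, against 15521.5 and 25915 in Sox9-low cells. Summed erythroid markers, a gauge of free RNA in a gate that limits globins, were 289.9 CPM (counts per 1000000 UMIs, with the UMIs of a cell group pooled) in members and 285 CPM in Sox9-low cells of dual-enSERT-1, but 2226 and 2358 CPM in dual-enSERT-2. The libraries shared 49 barcode sequences, none of them a member's. A doublet caller marked 134 members of dual-enSERT-1 (10.8%, against 9.83% of filtered barcodes) and none in dual-enSERT-2 (3.16% of filtered barcodes). Members stayed in whether marked or not, and values without the marked cells are given where they moved.

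The values that chose the members differed in strength between the libraries, and they are a description only. Sox9 per 10000 UMIs ran from 4.01 over a median of 7.91 to 34.3 in dual-enSERT-1 and from 4.02 over 5.02 to 8.04 in dual-enSERT-2. The 4 matrix genes summed to a median of 6 UMIs per member (3 to 35) and of 4 UMIs (3 to 10). Col2a1 stood at 343 CPM in members against 29.8 CPM in Sox9-low cells of dual-enSERT-1, and at 119 against 7.28 CPM in dual-enSERT-2. Col9a1 stood at 104 against 21.4 CPM and at 19.6 against 11.2 CPM, and Col9a3 at 52.4 against 2.56 CPM and at 7.06 against 0.889 CPM. Cnmd reached 28.9 against 0.317 CPM in dual-enSERT-1, in 265 of 1243 members, and had no UMI in the 45 members of dual-enSERT-2, where 3 UMIs would be 2.35 CPM. In dual-enSERT-2, 51.1% of members met the matrix condition with Col2a1 alone, against 17.7% in dual-enSERT-1.

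Many cells lay near the thresholds. In dual-enSERT-1, 205 members had under 5 Sox9 UMIs per 10000, and 224 cells that met the other conditions were just outside with 3 to 4. At the matrix threshold of 3 UMIs stood 207 members, and just outside, at 2 UMIs, 229 cells. In dual-enSERT-2 the numbers were 22 and 24 for Sox9, and 21 and 37 for matrix.

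Matn4, a marker of the label that the rule did not use, stood far higher in members than in Sox9-low cells of dual-enSERT-1. It had 419 UMIs in 267 members, 22.6 against 0.2495 CPM, a ratio of 90.4 (95% interval 60.9 to 140.1). In dual-enSERT-2 it had 2 UMIs in 45 members, 1.57 against 0.0565 CPM, a ratio of 27.8 (95% interval 2.52 to 194). Of the 5 markers of the label, Matn4 is the one that the rule left free, and in dual-enSERT-1 it went with the label. In dual-enSERT-2, Cnmd had no UMI and Matn4 had 2, and the members are better read there as Sox9-high mesenchyme with a little Col2a1. Acan (aggrecan), the main proteoglycan of formed cartilage, had 5 UMIs in dual-enSERT-1 members (0.269 CPM). Matn1, another matrilin, stood at 1.89 against 0.0192 CPM there and had no UMI in dual-enSERT-2, and Snorc had none in the members of either library.

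Markers of other cells were looked for in the same way, and their part in the results was not tested. In dual-enSERT-1 the 5 neural crest and glia markers summed to 19.4 CPM in members and 4.52 CPM in Sox9-low cells. Foxd3 was at 0, Erbb3 had 203 UMIs in 166 members (10.9 against 0.365 CPM) and Sox10 had 39 UMIs in 36. The neuron list stood at 41.6 against 24.7 CPM, with Stmn2 at 28.5 against 5.37 CPM, and the ectoderm list at 30.8 against 12.1 CPM, with Epcam at 0 by the gate and Krt18 at 23.3 against 7.97 CPM. The same 3 lists of the second library stood at 5.49 against 4.73, 14.9 against 15.7 and 9.42 against 7.47 CPM, and Sox10, Foxd3 and Erbb3 were at 0. Endothelial, muscle and macrophage lists were between 1.20 and 8.30 CPM in both groups of both libraries, and the general limb mesenchyme list stood at 1835 against 1763 CPM and 1448 against 1527 CPM.

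Next, every other gene was compared between members and Sox9-low cells. A gene counted as higher or lower when its level differed at least 2-fold (log2 of at least 1, with 1 CPM added) the same way in both libraries, among the 6961 genes that reached 20 CPM in either group of each. By this measure 63 genes were higher in members (0.905% of the genes compared) and 47 were lower (0.675%). In dual-enSERT-1 alone 207 of 7451 genes were higher (2.78%) and 82 lower (1.1%). The median log2 difference of all genes compared was 0.02 in the first library and -0.0045 in the second, so levels were centred alike. A pooled level does not tell more cells with an RNA from more RNA per cell. Because cells were sorted by Sox9 and matrix RNA, these counts describe what goes with those genes and test nothing.

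Ranked first by the smaller of its differences in the libraries was Sema3d, a secreted guidance cue on chromosome 5 (GRCm39, 12433124 to 12638929, plus strand). It stood at 76.8 against 2.35 CPM in the first library and 24.3 against 1.30 CPM in the second, ratios of 32.7 (95% interval 28.5 to 37.6) and 18.7 (95% interval 12.1 to 28.4). Sox6 (chromosome 7, 115070106 to 115638860, minus strand), the SOX partner of Sox9 in cartilage, stood at 430.3 against 25.7 CPM in the first library and 80.8 against 17.8 CPM in the second. Its ratio was 16.8 (95% interval 16.04 to 17.5) in dual-enSERT-1 and 4.54 (95% interval 3.68 to 5.55) in dual-enSERT-2, so the difference held in both but was wider in the first. Bmpr1b, the type I BMP receptor of limb condensations, stood at 359 against 60.1 CPM in the first library and 135 against 27.9 CPM in the second. The same direction in both libraries was a condition for naming a gene here.

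Matrix-associated and adhesion genes made up part of the rest. Sned1, an extracellular matrix protein, stood at 68.5 against 6.30 CPM in the first library and 40.0 against 3.95 CPM in the second. Fibin, a secreted protein first named in fin buds, stood at 81.8 against 11.1 CPM in the first library and 22.8 against 1.69 CPM in the second. The metalloprotease gene Adam12 stood at 30.1 against 4.07 CPM in the first library and 28.3 against 5.38 CPM in the second. All 3 encode proteins that are secreted or act at the cell surface. The cell adhesion gene Cadm2 stood at 101 against 21.5 CPM in the first library and 39.2 against 5.77 CPM in the second. Sorbs2, a cytoskeletal adaptor, stood at 99.4 against 13.9 CPM in the first library and 92.6 against 9.13 CPM in the second. Dab1, the adaptor of reelin signals, stood at 133 against 27.2 CPM in the first library and 43.2 against 7.01 CPM in the second. These genes have roles at the membrane or the cytoskeleton, as does Pmp22, a membrane protein of myelin and other cells, at 26.8 against 4.13 CPM in the first library and 34.5 against 2.41 CPM in the second. Dcx, which binds microtubules and has been used as a mark of joint-forming cells, stood at 62.1 against 13.2 CPM in the first library and 66.7 against 14.5 CPM in the second. All 8 were named under that same condition, of being higher in members of both libraries.

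Among transcription factors, Tbx18, a T-box factor of limb connective tissue, stood at 246 against 41.0 CPM in the first library and 141 against 29.4 CPM in the second. Zeb2, a repressor that binds SMAD proteins, stood at 40.2 against 6.35 CPM in the first library and 59.6 against 10.6 CPM in the second. Fam181b, a gene of little known function, stood at 139.6 against 19.9 CPM in the first library and 141 against 11.7 CPM in the second. The last of the 15 genes ranked highest by the smaller of their differences was 2610035D17Rik, a noncoding RNA near Sox9 whose neighbourhood is described with the Sox9 locus.

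In the plot of these differences, the higher genes lie at the upper right and a second group, the lower genes, at the lower left.

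**Figure D1:**
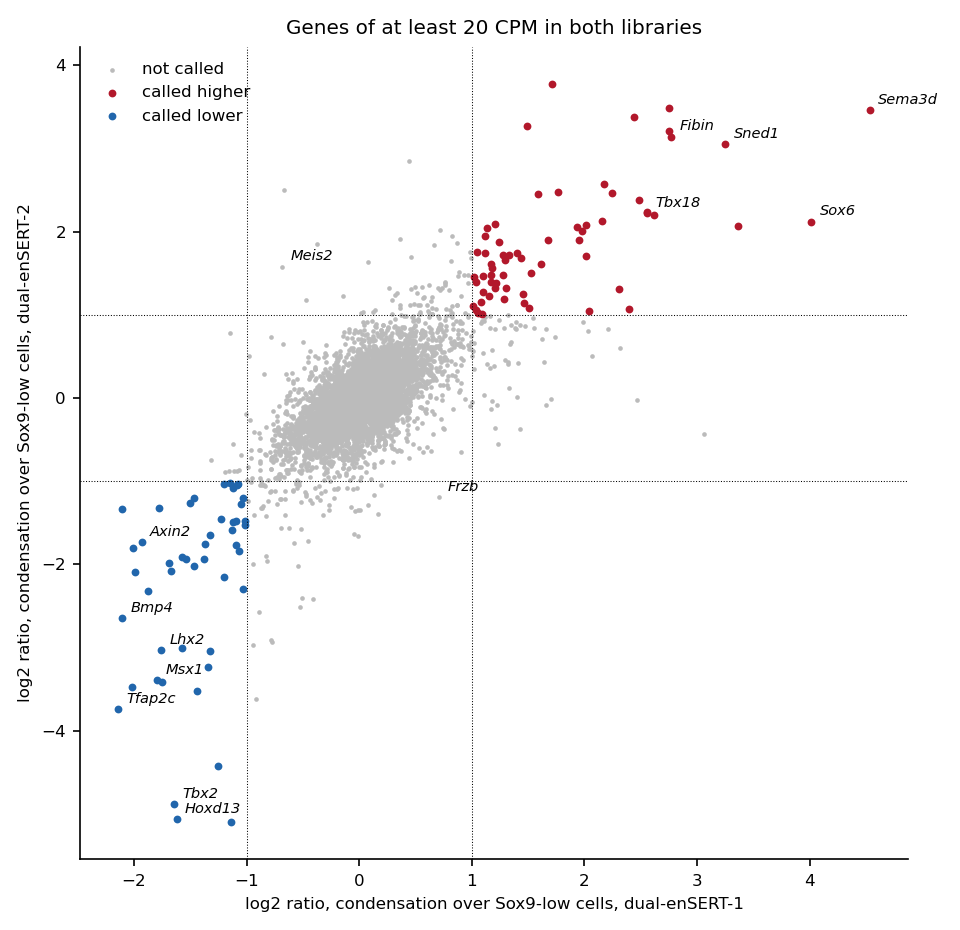
Each point is a gene, with its log2 difference between condensation cells and Sox9-low cells in dual-enSERT-1 on the x axis and in dual-enSERT-2 on the y axis (pooled CPM, 1 CPM added). The 63 genes at least 2-fold higher and the 47 at least 2-fold lower in both libraries lie in opposite corners, with Sema3d at 4.54 and 3.46 and Msx1 at -1.80 and -3.39.

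Lower in members was a set led by BMP, WNT and distal limb genes. Bmp4, a BMP ligand of limb mesenchyme, stood at 37.2 against 163 CPM in the first library and 13.3 against 89.0 CPM in the second, ratios of 0.228 (95% interval 0.211 to 0.246) and 0.150 (95% interval 0.0872 to 0.240). Msx1, a BMP-responsive homeobox factor of undifferentiated mesenchyme, stood at 78.3 against 275 CPM in the first library and 22.0 against 240.0 CPM in the second. Grem1, a secreted BMP antagonist, stood at 14.4 against 48.0 CPM in the first library and 11.8 against 53.1 CPM in the second. A ligand, a response gene and an antagonist of the BMP pathway were thus all lower, but the response genes Id1, Id2 and Id3, given below, were near level. Of the WNT pathway, the feedback gene Axin2 stood at 13.0 against 52.4 CPM in the first library and 7.85 against 28.5 CPM in the second. Nkd2, another feedback inhibitor, stood at 15.7 against 66.2 CPM in the first library and 7.85 against 30.0 CPM in the second. The receptor gene Fzd10 stood at 5.44 against 24.6 CPM in the first library and 6.28 against 30.1 CPM in the second. Bmp4, Msx1, Grem1, Axin2, Nkd2 and Fzd10 were likewise named on condition of being lower in members of both libraries.

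Genes of the distal and posterior limb were lower too. Lhx2, a LIM factor of distal mesenchyme, stood at 35.1 against 121 CPM in the first library and 18.1 against 155 CPM in the second. Hoxd13, the factor of the autopod (hand and foot), stood at 32.0 against 101 CPM in dual-enSERT-1 and had no UMI in the dual-enSERT-2 members against 32.5 CPM, a ratio of 0 with an upper 95% limit of 0.0890. The posterior factors Tbx2 and Tbx3 stood at 14.1 against 46.0 CPM and 14.5 against 45.2 CPM in dual-enSERT-1. In dual-enSERT-2, Tbx2 had no UMI against 28.5 CPM, a ratio of 0 with an upper 95% limit of 0.102, and Tbx3 had 4 UMIs, 3.14 against 32.3 CPM. Tfap2c, a transcription factor of limb mesenchyme and ectoderm, stood at 4.15 against 21.7 CPM in dual-enSERT-1 and had 1 UMI in dual-enSERT-2 members, a ratio of 0.0344 (95% interval 0.000869 to 0.192). Rbfox3, a splicing regulator, stood at 5.60 against 23.3 CPM in the first library and 3.92 against 23.6 CPM in the second, and the sarcoglycan gene Sgcz at 5.71 against 20.7 CPM in the first library and 6.28 against 27.9 CPM in the second. Both reporters completed the 15 and are given with Shh.

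Because members were more often proximal than Sox9-low cells, the comparison was repeated with Sox9-low cells reweighted to the members' positions (defined with the position results). Of the 63 higher genes 40 were still at least 2-fold higher, and of the 47 lower genes 23 were still at least 2-fold lower, and all of them kept their direction. Of the 30 genes ranked highest, Hoxd13 was the exception, with a smaller difference of -0.73. Sema3d stood at 3.01, Sox6 at 2.39, Bmp4 at -1.88 and Axin2 at -1.69 (log2, the smaller of both libraries). Sox9-low cells may hold Gsc or Barx2 RNA, which members may not. Against Sox9-low cells without either, a choice made after seeing the data, 63 of the 63 and 45 of the 47 genes were called again.

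SOX factors bind short AT-rich words, and the promoters of these genes were searched for 2 of them, AACAAT and ACAAAG, on both strands. The windows ran from 250 bases before to 50 after each RefSeq transcript start on GRCm38.p6. Of the 63 higher genes 49 had promoters in the table, 81 in all, and 29 of the 81 held a word (35.8%). Each start was counted, so Sox6 with 6 starts and Bmpr1b with 3, whose windows overlap in part, weigh more than genes with 1 start. Of the 47 lower genes 30 had promoters, 37 in all, and 11 held a word (29.7%). The share was 18.7% of the 7074 promoters of the genes compared and 27.0% of all 32851 promoters, so a word is common by letters alone. A match is a run of letters and not a binding site. The 250 bases before the start are shown for the 3 higher genes described first and, for contrast, for Matn4 and the lower gene Bmp4, with the words in capitals. They were read at chr5:12382916-12383165 (plus strand) for Sema3d, chr7:115824711-115824960 (minus) for Sox6, chr3:141982265-141982514 (minus) for Bmpr1b, chr2:164405161-164405410 (minus) for Matn4 and chr14:46390670-46390919 (minus) for Bmp4. For Sox6 and Bmpr1b, which have several starts, the start with most words is shown, and for Matn4 the first listed.
Sema3d: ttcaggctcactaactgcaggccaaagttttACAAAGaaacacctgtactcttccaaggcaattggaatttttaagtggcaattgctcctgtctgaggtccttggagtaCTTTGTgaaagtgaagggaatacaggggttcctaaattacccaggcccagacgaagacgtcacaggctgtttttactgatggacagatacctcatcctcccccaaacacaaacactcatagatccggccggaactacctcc
Sox6: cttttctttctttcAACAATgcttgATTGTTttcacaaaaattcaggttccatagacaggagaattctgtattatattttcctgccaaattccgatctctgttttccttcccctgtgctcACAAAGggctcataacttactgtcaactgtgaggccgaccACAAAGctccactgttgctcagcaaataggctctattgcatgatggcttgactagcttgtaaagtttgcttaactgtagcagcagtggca
Bmpr1b: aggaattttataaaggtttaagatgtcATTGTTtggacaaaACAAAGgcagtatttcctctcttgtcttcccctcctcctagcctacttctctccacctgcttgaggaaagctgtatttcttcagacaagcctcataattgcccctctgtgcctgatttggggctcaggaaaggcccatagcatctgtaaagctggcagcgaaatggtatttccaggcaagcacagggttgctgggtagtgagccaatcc
Matn4: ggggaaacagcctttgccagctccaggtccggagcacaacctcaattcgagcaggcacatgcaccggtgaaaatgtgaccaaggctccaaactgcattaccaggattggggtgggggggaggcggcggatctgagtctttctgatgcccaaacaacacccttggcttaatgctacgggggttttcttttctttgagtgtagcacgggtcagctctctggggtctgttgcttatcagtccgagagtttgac
Bmp4: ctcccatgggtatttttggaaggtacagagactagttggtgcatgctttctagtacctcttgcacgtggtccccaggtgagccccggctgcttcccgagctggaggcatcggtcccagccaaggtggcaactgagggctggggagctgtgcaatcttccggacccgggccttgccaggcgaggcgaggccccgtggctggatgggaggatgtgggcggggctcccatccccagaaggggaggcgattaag
The Sema3d stretch holds ACAAAG once on each strand, 219 and 141 bases before the start. The Sox6 stretch holds 4 words, at 236, 225, 130 and 90 bases before the start, the first pair being AACAAT on opposite strands. The Bmpr1b stretch holds 2, at 223 and 209 bases, and those of Matn4 and Bmp4 hold neither word.

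The SOX partners and other factors with roles in cartilage formed a list of 18 genes, of which 9 reached the level to be compared in both libraries. Sox6 and Foxp2 were at least 2-fold higher and none was lower, with list medians of 1.21 and 0.71 (log2, first and second library). In dual-enSERT-1 alone 10 of 13 were higher. Sox5 (chromosome 6, 143774151 to 144727703, minus strand) stood at 724 against 234 CPM in the first library and 415 against 254 CPM in the second. Wwp2, a ubiquitin ligase gene that hosts a microRNA of cartilage, stood at 238 against 42.2 CPM in dual-enSERT-1 but at 45.5 against 46.2 CPM in dual-enSERT-2. Mef2c, a factor of later cartilage growth, showed the same split, at 81.7 against 11.4 CPM and 9.42 against 13.6 CPM. Foxc1, a forkhead factor of skeletal mesenchyme, stood at 25.9 against 1.55 CPM in dual-enSERT-1, Runx2, the bone and cartilage factor, at 28.0 against 13.1 CPM, and Trps1 at 957 against 472 CPM. Nfia was the opposite case, at 389.5 against 666 CPM in the first library and 26.7 against 210.1 CPM in the second. Wwp2 and Mef2c thus stood higher in the members of dual-enSERT-1 and not in the 45 of dual-enSERT-2. That difference between libraries was not tested.

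Matrix genes beyond the rule were mostly low. Of 20 cartilage matrix genes 2 reached the level to be compared in both libraries, and neither differed 2-fold in both. Col11a1, a fibrillar collagen of cartilage, stood at 117 against 54.9 CPM in the first library and 83.2 against 44.1 CPM in the second. In dual-enSERT-1 alone 3 of 4 were higher, Col11a1 among them, with Matn4 and Col9a2, a collagen IX chain, at 36.7 against 1.70 CPM. Col8a1, a short-chain collagen outside the list, stood at 33.8 against 0.921 CPM there. Enzymes that sulfate and build chondroitin chains were higher in 3 of 6 cases in dual-enSERT-1, with Papss2, which makes the sulfate donor, at 23.3 against 2.82 CPM and Chst11, a chondroitin sulfotransferase, at 70.5 against 13.4 CPM. None of the 4 compared in both libraries differed 2-fold in both. The collagen secretion machinery was near level, with none of 13 genes different in both libraries and a median of 0.18 and -0.11, and Creb3l2, its regulator in cartilage, stood at 118 against 44.3 CPM in dual-enSERT-1.

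Adhesion genes linked to condensation were mixed in direction. Of 16 listed genes 10 were compared, with medians of 0.30 and -0.09, and 2 were higher in both libraries. These were Vcan, the proteoglycan versican of condensing mesenchyme, at 812 against 153 CPM in the first library and 461 against 219 CPM in the second, and the Eph receptor Epha7. Cdh2 (N-cadherin) stood at 138 against 102 CPM in the first library and 45.5 against 75.9 CPM in the second, and Ncam1 at 93.0 against 103 CPM in the first library and 54.1 against 52.7 CPM in the second, so the classical adhesion molecules of condensation were near level or differed in sign between libraries.

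Few BMP, TGF-beta and WNT genes differed in both libraries. Of 8 BMP ligands and receptors compared, Bmpr1b was higher and Bmp4 lower. Of 9 antagonists and response genes, the antagonist Chrdl1 was higher, at 20.7 against 8.43 CPM in the first library and 22.8 against 4.59 CPM in the second, and Bambi, Grem1 and Msx1 were lower. The list medians were -0.22 and -0.10 (log2). The response gene Id1 stood at 306 against 355 CPM in the first library and 225 against 217 CPM in the second. Id2 stood at 143 against 155 CPM and 140 against 115 CPM, and Id3 at 386 against 340 CPM and 340 against 365 CPM. Noggin (Nog), an antagonist of condensations, was low, at 3.02 against 0.662 CPM in dual-enSERT-1. Of the TGF-beta list none of 3 differed in both libraries, but in dual-enSERT-1 the ligand Tgfb2 stood at 98.3 against 20.7 CPM, against 8.63 and 11.04 CPM for members and Sox9-low cells of dual-enSERT-2. Of 7 WNT ligands and antagonists the secreted antagonist Sfrp1 was higher, at 108 against 25.4 CPM in the first library and 50.2 against 23.8 CPM in the second, and Sfrp2 stood at 133 against 27.9 CPM in dual-enSERT-1. Other antagonists were lower there, with Dkk2 at 7.86 against 31.7 CPM, Wif1 at 20.7 against 47.3 CPM and Dkk1 at 1.56 against 12.4 CPM, and in each library alone 2 of the list were higher and 2 lower. Of 4 WNT response genes Axin2 and Nkd1 were lower, with list medians of -1.09 and -1.18. Axin2, Nkd1 and Bmp4 were thus lower in members, and the WNT antagonist Sfrp1 and the BMP receptor Bmpr1b higher.

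Of 10 FGF pathway genes compared, Etv4 and Spry4, which respond to FGF, were lower in both libraries and none was higher, with medians of -0.45 and -1.08. Fgfr3, the FGF receptor of cartilage, was outside the comparison by its level and stood at 11.2 against 0.921 CPM in dual-enSERT-1. In the Notch list the receptor Notch1 was higher, at 21.7 against 6.57 CPM in the first library and 29.8 against 4.64 CPM in the second, and the target Hey1 lower, at 9.91 against 30.7 CPM in the first library and 7.85 against 32.8 CPM in the second, among 4 compared. Of 7 guidance and vessel cues compared, Sema3d and the chemokine Cxcl12 were higher, the latter at 90.7 against 27.0 CPM in the first library and 212 against 14.5 CPM in the second. None of 6 retinoic acid genes differed in both libraries, and the retinoic acid enzyme Aldh1a2 stood at 50.7 against 3.07 CPM in dual-enSERT-1. None of 10 glycolysis and hypoxia genes differed 2-fold in both libraries, with medians of -0.38 and -0.49, but in dual-enSERT-2 alone 3 of 10 were lower, among them Ldha at 370.4 against 862 CPM. Of the 2 dissociation stress genes compared none differed in both libraries, though Jun stood at 167 against 50.6 CPM in dual-enSERT-1 and 29.8 against 30.1 CPM in dual-enSERT-2.

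Genes of neighbouring fates overlapped in part. Of 8 tendon and connective tissue genes compared, Tbx18 and Osr2 were higher, the latter at 81.2 against 28.4 CPM in the first library and 54.9 against 4.78 CPM in the second, and Twist1 was lower, at 193 against 429 CPM in the first library and 144 against 293 CPM in the second. Scx, the tendon factor, stood at 86.8 against 67.3 CPM in the first library and 72.2 against 18.5 CPM in the second and was found in 687 of 1243 members and 35 of 45. Of the 8 joint genes listed Dcx alone reached the level to be compared in both libraries. In dual-enSERT-1 alone Enpp2 reached it too, at 30.1 against 4.27 CPM, and 2 of the 2 joint genes compared there were higher in members. The others were lower in level, with Gdf5 at 3.02 against 1.33 CPM and Erg at 17.7 against 4.50 CPM in dual-enSERT-1. Of 10 genes of later cartilage and bone none reached the level to be compared in both libraries. Pth1r, the receptor of parathyroid hormone and its related peptide, did so in dual-enSERT-1, at 22.3 against 29.9 CPM, and stood at 16.5 against 18.3 CPM in dual-enSERT-2. Spp1 (osteopontin) stood at 13.0 against 0.681 CPM in dual-enSERT-1, while Ihh, Col10a1, Ibsp, Mmp13 and Panx3 were at or near 0.

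Sox9 level was then read as a scale. Gated cells without Gsc or Barx2 were put in 6 bins of Sox9 UMIs per 10000 (under 1, 1 to 2, 2 to 4, 4 to 8, 8 to 16, and 16 or more), with no condition on matrix. In dual-enSERT-1, with 5239, 1098, 1303, 1156, 626 and 133 cells, Col2a1 stood at 27.1, 56.8, 92.6, 167, 361 and 667 CPM from the lowest to the highest bin. Matn4 stood at 0.184, 1.54, 2.59, 8.57, 27.5 and 56.2 CPM, Sox6 at 22.9, 48.9, 111, 226, 483 and 768 CPM and Sema3d at 2.19, 4.22, 10.4, 26.8, 94.0 and 224 CPM. Cdkn1c, an inhibitor of cell division, stood at 579, 751, 892, 1127, 1697 and 2429 CPM. Each of these was higher in every bin than in the one before. The reverse order held for Bmp4 (174, 95.7, 71.1, 46.8, 22.8 and 17.6 CPM) and Axin2 (54.5, 30.2, 22.9, 15.5, 8.44 and 8.13 CPM), and for Msx1 up to the fifth bin (305, 188, 123, 89.3, 61.9 and 79.2 CPM). The bins shift in limb position as well. The distal gene Hoxd13 stood at 112, 90.8, 73.4, 52.1, 23.8 and 3.39 CPM. The proximal gene Meis1 stood at 40.2 CPM in the lowest bin and 181 CPM in the highest. The part of position in these orders was not tested.

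The same bins set the libraries side by side at a matched Sox9 level. At 4 to 8 Sox9 UMIs per 10000 (1156 and 173 cells), Col2a1 stood at 167 CPM in dual-enSERT-1 and 55.0 CPM in dual-enSERT-2, Sox6 at 226 and 48.5 CPM, Wwp2 at 109 and 47.0 CPM, and Cdkn1c at 1127 and 582 CPM. Cnmd stood at 9.81 CPM in dual-enSERT-1 and had no UMI in dual-enSERT-2. Matn4 stood at 8.57 and 0.500 CPM. In dual-enSERT-2 the highest bin with cells was 8 to 16, with 18 cells. From the bin of 4 to 8 to that bin, Col2a1 went from 55.0 to 54.7 CPM, Sox6 from 48.5 to 9.95 CPM (2 UMIs) and Cdkn1c from 582 to 492 CPM. Sema3d went from 12.5 to 14.9 CPM (3 UMIs), and Matn4 had no UMI in the higher bin. The rising order of dual-enSERT-1 was thus not seen at this step for Sox6. Col2a1 rests on 11 UMIs in the higher bin (27.3 to 97.9 CPM) and Cdkn1c on 99 (400 to 600 CPM). Their intervals overlap those of the bin below, so a rise or a fall cannot be read for these genes. Msx1 went in the same direction in both libraries, from 305 to 89.3 CPM and from 250.5 to 21.8 CPM between the lowest bin and the bin of 4 to 8. In the lowest bin Col2a1 stood at 27.1 and 7.17 CPM and Cdkn1c at 579 and 352 CPM, so the gap of these genes was not particular to Sox9-high cells. Sox6 and Wwp2 were closer between the libraries in that bin, at 22.9 and 18.2 CPM and at 41.9 and 46.3 CPM. Hapln1, a link protein of cartilage matrix, stood at 2.02 CPM (36 UMIs, 1.41 to 2.79) and 3.25 CPM (13 UMIs, 1.73 to 5.56) in the bin of 4 to 8. Its intervals overlap, so no order of the libraries is read from it.

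**Figure D2:**
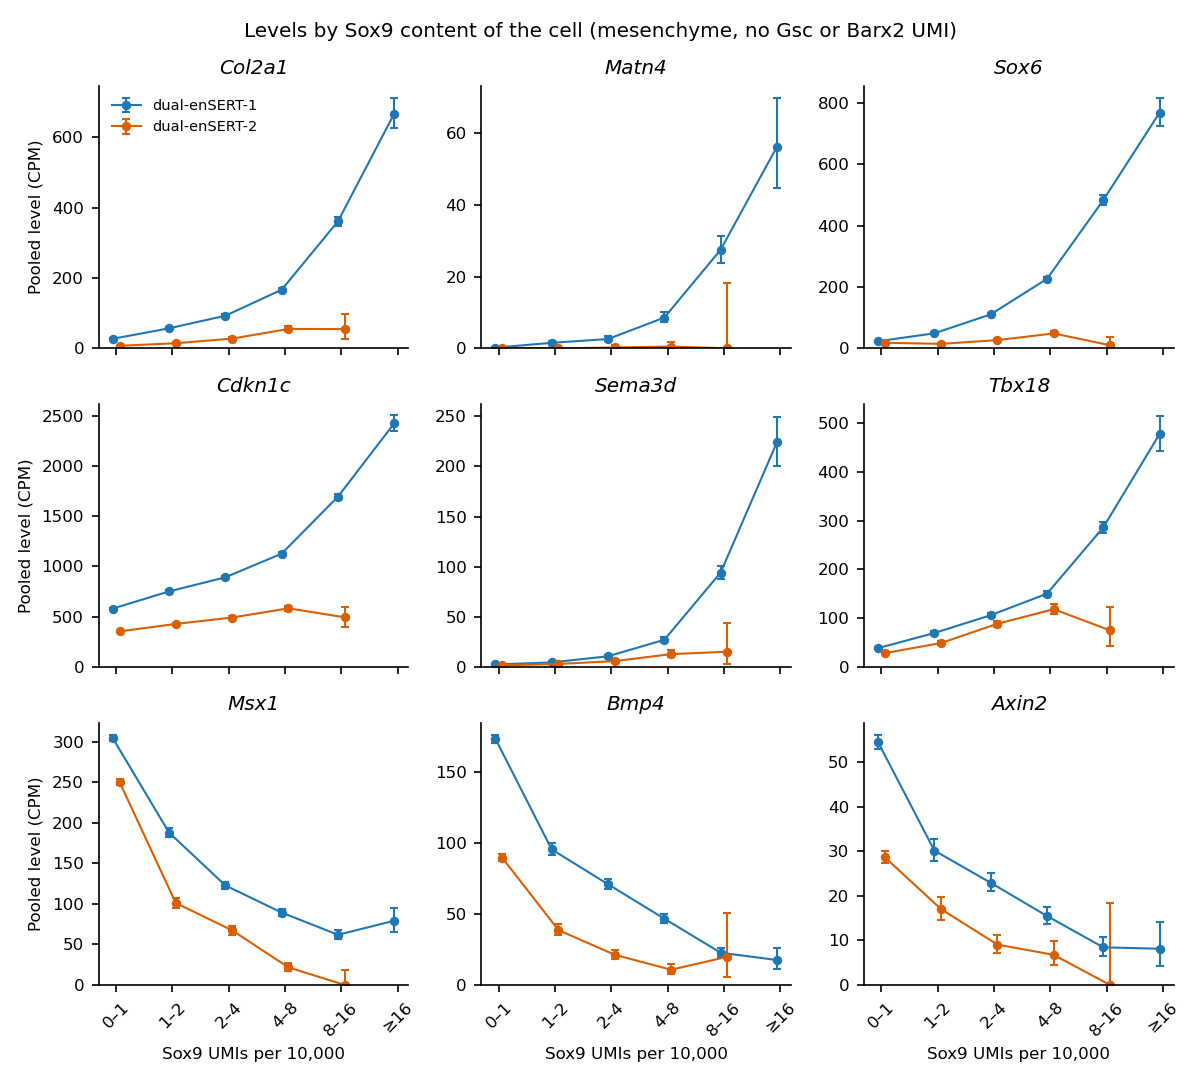
Level of 9 genes (pooled CPM, y axis) in mesenchyme cells grouped by Sox9 UMIs per 10000 UMIs (x axis), with exact Poisson 95% intervals, for dual-enSERT-1 and dual-enSERT-2. Col2a1 of dual-enSERT-1 goes from 27.1 CPM in the lowest bin to 667 CPM in the highest, and Bmp4 from 174 to 17.6 CPM. The bins also differ in limb position.

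Members were set along the limb by Hox and Meis RNA after thinning each cell to 5000 UMIs. A distal cell had a UMI of Hoxa13 or Hoxd13, which mark the autopod, and none of Meis1 or Meis2, which mark the proximal limb, and a proximal cell the reverse. In dual-enSERT-1, 159 of 1235 members were distal (12.9%, 11.1 to 14.9), 555 proximal (44.9%, 42.1 to 47.8), 42 had both kinds and 479 neither. Sox9-low cells there were 37.5% distal and 23.9% proximal of 5950. In dual-enSERT-2 none of 45 members was distal, with an upper limit of 7.87%, and 36 were proximal (80.0%, 65.4 to 90.4), while 15.2% of 2601 Sox9-low cells were distal and 32.6% proximal. In erythroid barcodes, which should lack these genes, Hoxa13 or Hoxd13 was seen in 5.79% and 1.18%, and Meis1 or Meis2 in 6.43% and 3.71% (median UMIs 21000 and 28167 before thinning). By list, 6 of 10 distal limb genes and 3 of 5 posterior limb genes compared were lower in members of both libraries, and none was higher. Of 9 proximal limb genes none differed 2-fold in both, with medians of 0.77 and 0.96 (log2). Among them, Shox2 stood at 501 against 282 CPM in the first library and 662 against 171 CPM in the second. Not all went that way. Hoxa11 was lower in members of both libraries, at 48.2 against 74.6 CPM and 33.0 against 99.5 CPM. Meis2, a gene that sets position here, was lower in members of the first library, at 122 against 196 CPM, and higher in the second, at 445 against 148 CPM. By the share of cells, members were thus more often proximal and less often distal than Sox9-low cells in both libraries. The pooled level of Meis2 in dual-enSERT-1 went the other way. In that library 8 members were too shallow to place.

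**Figure D3:**
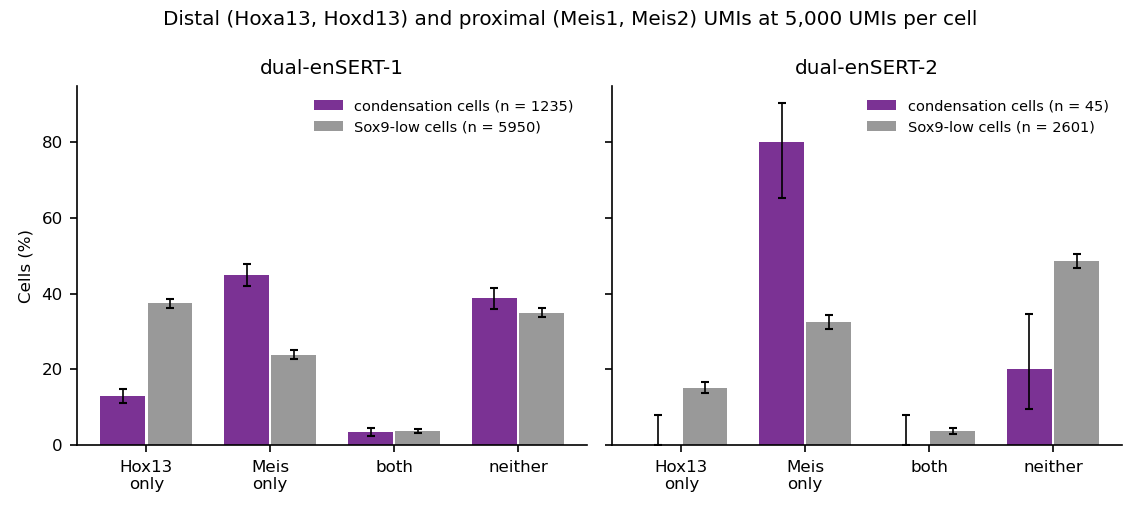
Share of cells (%, y axis) that were distal, proximal, both or neither by Hoxa13, Hoxd13, Meis1 and Meis2 at 5000 UMIs per cell, for condensation cells and Sox9-low cells of each library, with exact binomial 95% intervals. Proximal cells make up 44.9% and 80.0% of condensation cells against 23.9% and 32.6% of Sox9-low cells.

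The distal and proximal members of dual-enSERT-1 differed from each other. Of 7596 genes compared, 112 were at least 2-fold higher in distal members (1.47%) and 211 at least 2-fold lower (2.78%). By the values that the rule used, distal members had less Sox9 and less Col2a1. Sox9 stood at 679 CPM in distal and 990.0 CPM in proximal members, Col2a1 at 165 and 449 CPM, Col9a3 at 25.5 and 72.1 CPM and Cnmd at 6.12 and 49.9 CPM. Col9a1 had the opposite order, at 133 and 92.1 CPM. Median depth was 16477 and 11793 UMIs, and the part of depth was not tested.

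Highest in distal members relative to proximal ones was Tfap2b, an AP-2 transcription factor, at 181 against 2.99 CPM, a ratio of 60.6 (95% interval 39.9 to 96.4). The Notch ligand Jag1 stood at 93.6 against 3.91 CPM and the Notch target Hey1 at 27.9 against 3.78 CPM. Regulators of distal or posterior limb were Lmo2 at 58.9 against 2.34 CPM, Sall1 at 123 against 16.1 CPM, Hoxd12 at 84.7 against 5.99 CPM, Hoxd11 at 234 against 64.7 CPM and Hand2 at 227 against 72.8 CPM. Adhesion and guidance genes were Pcdh15, a protocadherin, at 278 against 21.0 CPM and Slit3, a repellent cue, at 965 against 165 CPM. The sorting receptor Sorcs1 stood at 57.8 against 1.56 CPM and Ust, a sulfotransferase of chondroitin and dermatan chains, at 152 against 27.5 CPM. Wnt5a, the WNT ligand of limb outgrowth, stood at 289 against 105 CPM. By list, 4 of 4 posterior genes, 4 of 8 distal genes, 5 of 11 FGF genes and 2 of 5 Notch genes were higher in distal members, and none of these 4 lists had a lower gene.

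Higher in proximal members were genes of matrix and of connective tissue. Matn4 stood at 7.14 against 34.6 CPM, Col9a2 at 14.3 against 50.1 CPM, Vcan at 376 against 1044 CPM and Wwp2 at 103 against 335 CPM, distal against proximal. The factors Mef2c and Foxp2 stood at 23.8 against 103 CPM and 51.7 against 195 CPM, and Shox2, a factor of the proximal skeleton, at 129 against 689 CPM. Sema3d stood at 21.4 against 111 CPM, Tgfb2 at 31.3 against 141 CPM, Tbx18 at 79.9 against 349 CPM and Osr2 at 20.8 against 113 CPM. The 15 genes ranked first included Galnt13, which starts O-linked sugar chains, at 5.10 against 68.9 CPM, the adenylyl cyclase Adcy2 at 12.9 against 99.3 CPM and Igfbp5, which binds insulin-like growth factors, at 20.8 against 141 CPM. By list, 3 of 4 cartilage matrix, 6 of 11 tendon and connective tissue, 3 of 7 sulfation and 6 of 10 guidance genes were lower in distal members. With 2 UMIs asked for a position (76 against 293 cells), 188 genes were higher and 329 lower.

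**Figure D4:**
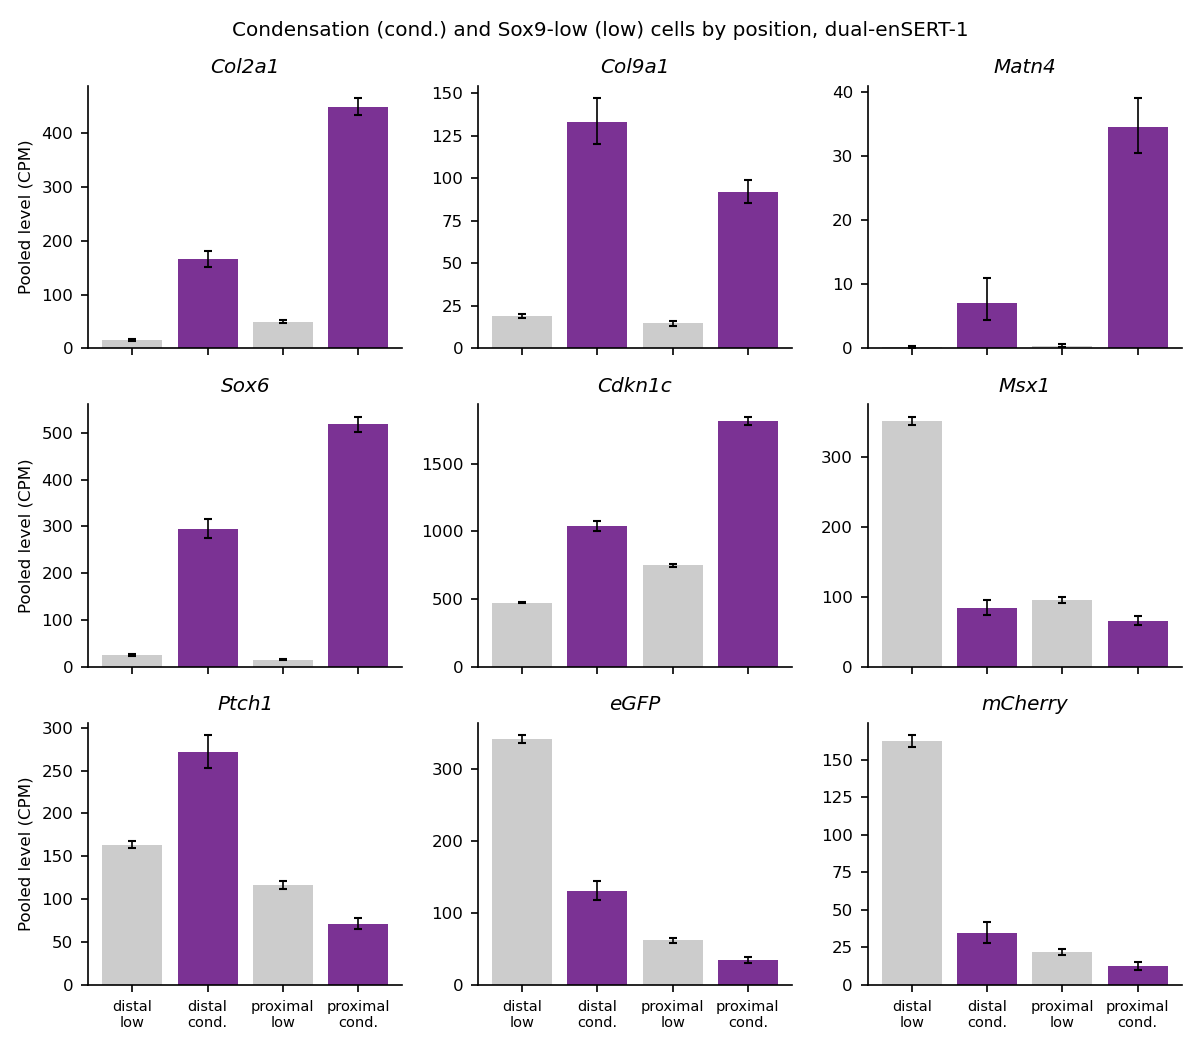
Level of 9 genes (pooled CPM with exact Poisson 95% intervals, y axis) in distal and proximal Sox9-low cells and condensation cells of dual-enSERT-1. Matn4 is 34.6 CPM in proximal and 7.14 CPM in distal condensation cells, and Ptch1 is 71.5 and 272 CPM.

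Within a position, members still differed from Sox9-low cells. Among distal cells of dual-enSERT-1, 156 of 7393 genes were higher in members (2.11%) and 77 lower (1.04%). Fibin stood at 22.8 against 0.747 CPM, Sema3d at 21.4 against 0.891 CPM, Sox6 at 295 against 24.6 CPM, Bmpr1b at 457 against 65.0 CPM and Cxcl12 at 37.1 against 4.12 CPM. Lower were Axin2 at 9.53 against 46.7 CPM, Msx1 at 84.7 against 352 CPM and Bmp4 at 50.7 against 209 CPM. Among proximal cells, 46 of 6910 genes were higher (0.666%) and 32 lower (0.463%) in both libraries. Sox6 stood at 518 against 15.3 CPM in the first library and 85.4 against 14.2 CPM in the second, and Sema3d at 111 against 4.03 CPM in the first library and 24.6 against 2.50 CPM in the second. Lower in proximal members were Tbx3 at 16.01 against 100.2 CPM in dual-enSERT-1, the Notch pathway ligand Dlk1 at 40.8 against 184 CPM in the first library and 31.4 against 101 CPM in the second, and Bmp4 at 35.5 against 98.2 CPM in the first library and 14.7 against 93.9 CPM in the second. Of 5 posterior genes compared there, 3 were lower in both libraries. Sox6, Sema3d, Bmp4 and Axin2 had the same direction in distal and in proximal cells.

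Members also varied by how much matrix RNA they held. They were ranked by the UMIs of the 4 matrix genes per total UMIs and cut into 3 equal groups, the tertiles, within each library, 414, 415 and 414 cells in dual-enSERT-1. The tertiles differ in depth, with medians of 16199, 12144 and 10852.5 UMIs from poor to rich, in Sox9, with medians of 6.08, 7.73 and 11.3 UMIs per 10000, and in position, since 23.9%, 10.1% and 4.43% of them were distal and 30.7%, 40.5% and 64.0% proximal. In dual-enSERT-1, 135 of 7553 genes were at least 2-fold higher in the rich tertile than in the poor tertile (1.79%) and 81 lower (1.07%).

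From the poor over the middle to the rich tertile, Matn4 stood at 6.72, 16.4 and 54.8 CPM, and Col9a2 at 13.2, 33.5 and 77.2 CPM. Papss2 stood at 6.06, 18.1 and 56.7 CPM and Sema3d at 24.1, 60.7 and 179 CPM. Sox5 stood at 525, 647 and 1127 CPM, Sox6 at 239, 413 and 748 CPM and Wwp2 at 99.9, 195 and 506 CPM. Spp1 stood at 4.48, 12.1 and 27.2 CPM, Fgfr3 at 5.67, 9.85 and 21.5 CPM and Cdkn1c at 1104, 1463 and 2209 CPM. Tox, an HMG-box factor, stood at 95.2, 190.2 and 485 CPM. Each of these genes, none of them used to rank the cells, stood higher in each tertile than in the one before. The opposite order was seen for Tfap2b (73.3, 23.0 and 8.19 CPM), Jag1 (39.5, 21.5 and 7.16 CPM), Hoxd12 (36.6, 18.9 and 9.21 CPM) and Twist1 (240.0, 182 and 134 CPM). By list, 3 of 4 cartilage matrix genes and 6 of 13 transcription factors were higher in the rich tertile, and 7 of 10 distal and 4 of 4 posterior genes lower.

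**Figure D5:**
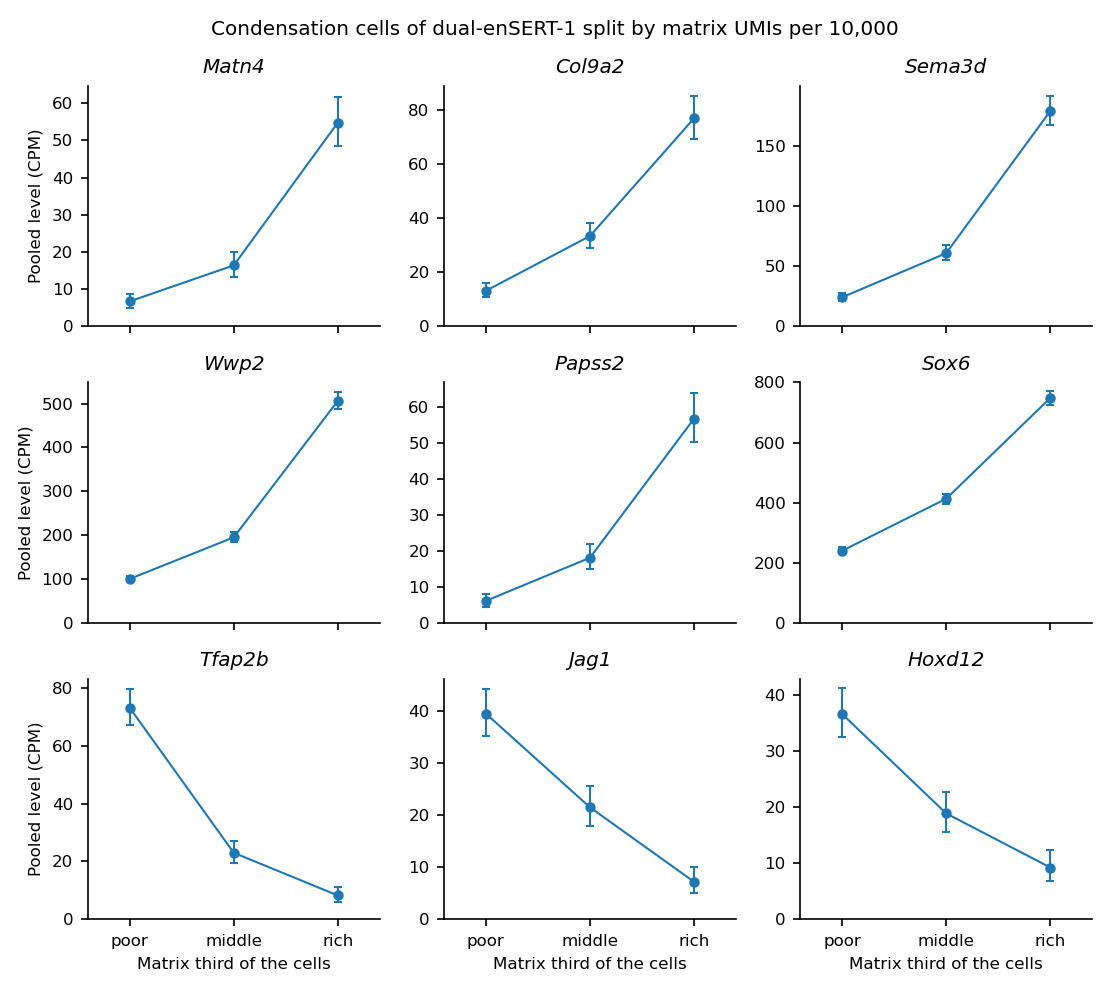
Level of 9 genes (pooled CPM with exact Poisson 95% intervals, y axis) in the matrix-poor, middle and matrix-rich tertiles of the dual-enSERT-1 condensation cells. Matn4 goes from 6.72 to 54.8 CPM and Tfap2b from 73.3 to 8.19 CPM.

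Erbb3, a receptor gene known from glia, was also higher in the rich than in the poor tertile, at 28.0 against 3.56 CPM. Adcy2 stood at 146 against 14.5 CPM and Galnt13 at 90.5 against 8.70 CPM. Within the proximal members alone, split into 277 matrix-rich and 277 matrix-poor cells, 94 of 7543 genes were higher (1.25%) and 36 lower (0.477%) in the rich cells. There Epha6, an Eph receptor, stood at 63.6 against 5.89 CPM, Papss2 at 64.2 against 10.9 CPM, Sema3d at 203 against 43.5 CPM, Matn4 at 61.1 against 15.2 CPM and Erbb3 at 31.3 against 7.02 CPM. Lower in them were Meox2, a homeobox factor of mesoderm, at 12.9 against 67.5 CPM and the zinc finger gene Zfp503 at 11.97 against 42.4 CPM. Median depth was 10832 and 13344 UMIs. In dual-enSERT-2 a tertile held 15 cells, and in both libraries together 15 of 6930 genes were higher (0.216%) and 13 lower (0.188%), among them Bmpr1b at 590.4 against 262 CPM in the first library and 236 against 55.7 CPM in the second and Ptch1 at 74.5 against 153 CPM in the first library and 99.4 against 205 CPM in the second.

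One neighbour group was gated cells that passed the Sox9 condition but held under 3 matrix UMIs, 672 and 146 cells. Against these, 6 of 6869 genes were at least 2-fold higher in members of both libraries (0.0873%) and none lower (0.0%). The 6 were Sema3d at 76.8 against 13.9 CPM in the first library and 24.3 against 7.53 CPM in the second, Sox6 at 430.3 against 112 CPM in the first library and 80.8 against 31.8 CPM in the second, 2610035D17Rik, Adam12, Fibin and Pmp22. In dual-enSERT-1 alone 62 of 7370 genes were higher (0.841%) and 7 lower (0.095%). Matn4 stood at 22.6 against 3.73 CPM, Col9a2 at 36.7 against 7.58 CPM, Papss2 at 23.3 against 3.03 CPM, Tgfb2 at 98.3 against 24.6 CPM and Mef2c at 81.7 against 20.7 CPM. Lower were, among others, Pcdh15 at 79.8 against 219.5 CPM, Lmo2 at 13.8 against 30.9 CPM and the anterior factor Pax9 at 9.64 against 20.9 CPM. Of the matrix-low cells of dual-enSERT-1, 25.7% were distal, against 12.9% of members. Median depth was 12807 UMIs in members and 11880 in matrix-low cells of the first library, and 27395 and 20091.5 in the second. Median Sox9 per 10000 UMIs was 7.91 and 5.82 in the first library and 5.02 and 5.36 in the second. The parts of depth and of Sox9 level in these differences were not tested.

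Another neighbour group met the Sox9 and matrix conditions but had Gsc or Barx2 RNA, 779 cells in the first library and 8 in the second, so that values are given for the first only. Of 7408 genes, 9 were higher in members (0.121%) and 20 lower (0.27%). The chondrogenic core was close, with Sox6 at 430.3 against 553 CPM, Sox5 at 724 against 652 CPM and Matn4 at 22.6 against 25.5 CPM. Higher in members were Kctd8 at 49.3 against 17.99 CPM, Tfap2b at 39.6 against 15.6 CPM and Bmper, a secreted BMP modulator, at 23.2 against 8.92 CPM. Lower were the homeobox factor Pknox2 at 44.6 against 183 CPM, Ebf2 at 28.3 against 95.6 CPM, Nr2f2 at 90.6 against 237 CPM, the retinoic acid receptor Rarb at 8.46 against 26.8 CPM, Enpp2 at 30.1 against 74.2 CPM, Chrdl1 at 20.7 against 49.6 CPM and Hhip at 6.84 against 23.6 CPM.

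Both reporters were lower in members than in Sox9-low cells. In dual-enSERT-1, eGFP of the ZRS404G>A allele stood at 60.7 against 206 CPM, a ratio of 0.294 (0.277 to 0.313). The mCherry of the reference ZRS stood at 20.5 against 85.8 CPM, 0.239 (0.215 to 0.265). Shh, the gene that the ZRS controls, stood at 1.94 against 12.8 CPM, 0.151 (0.106 to 0.210). In dual-enSERT-2 the members held 3 eGFP UMIs, a ratio of 0.0680 (0.0140 to 0.199), 2 mCherry UMIs, 0.0571 (0.00691 to 0.207), and no Shh UMI, a ratio of 0 with an upper 95% limit of 0.276. Barcodes with at least 20% globin UMIs held 54.1 CPM of eGFP and 33.6 CPM of mCherry in the first library. In the second they held 6.38 and 5.59 CPM. These are called globin-rich levels here. The member levels of both reporters lay near or below them in both libraries. Proximal members of the first library stood below them, at 34.1 and 12.5 CPM, so they are no floor of free RNA common to all cells. The part of free RNA in the reporter levels was not tested. With doublets removed the dual-enSERT-1 ratios were 0.224 and 0.172.

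The same comparison was made within each position. Among distal cells of dual-enSERT-1, eGFP stood at 131 CPM in members and 342 CPM in Sox9-low cells, 0.383 (0.345 to 0.424), and mCherry at 34.4 and 162 CPM, 0.212 (0.172 to 0.257). Among proximal cells eGFP stood at 34.1 and 62.2 CPM, 0.548 (0.479 to 0.626), and mCherry at 12.5 and 21.8 CPM, 0.574 (0.456 to 0.716). Distal members had less of both reporters than distal Sox9-low cells, but more than proximal members. The proximal ratios compare levels near or below the globin-rich levels of 54.1 and 33.6 CPM, with proximal Sox9-low cells at 62.2 and 21.8 CPM. How much of these levels is free RNA was not tested, and little is read from the proximal ratios. Of these member levels, distal eGFP alone exceeded its globin-rich level of 54.1 CPM by more than counting error. The interval of distal mCherry (28.0 to 41.8) included its globin-rich level of 33.6 CPM, and the proximal levels were below theirs.

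Hedgehog response genes were lower in members, as the reporters were, in proximal cells of dual-enSERT-1 but not in its distal cells. Ptch1, the receptor and target of hedgehog signals, stood at 119 against 136 CPM in the first library and 133 against 149 CPM in the second. Within distal cells of dual-enSERT-1 it was higher in members, at 272 against 164 CPM, 1.66 (1.54 to 1.79), and within proximal cells lower, at 71.5 against 117 CPM, 0.611 (0.556 to 0.670). Gli1, a transcriptional target, had the same pattern, with ratios of 1.34 (1.06 to 1.67) and 0.479 (0.362 to 0.625). Hhip, a hedgehog-binding antagonist, was 5.19-fold higher in distal members (3.44 to 7.67) and 0.523-fold in proximal ones (0.354 to 0.752). In dual-enSERT-2, where 36 of 45 members were proximal, it stood at 42.4 against 4.22 CPM, 10.0-fold (7.37 to 13.5), and within proximal cells it was 7.73-fold higher (5.42 to 10.9). Proximal Gli1 there had a ratio of 1.23 (0.813 to 1.78) and Ptch1 of 0.868 (0.723 to 1.04). Of 8 hedgehog genes compared 1 was higher in both libraries and none lower. It was the co-receptor Cdon, which stood at 98.4 against 47.1 CPM in the first library and 137 against 40.0 CPM in the second. Boc, another co-receptor, stood at 142 against 34.0 CPM in the first library and 74.6 against 42.3 CPM in the second. The sign of the member difference of Ptch1, Gli1 and Hhip in dual-enSERT-1 was therefore opposite in distal and proximal cells, and proximal Hhip had opposite signs in the 2 libraries. These contrasts were not tested.

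Cell cycle RNA was lower in members of dual-enSERT-1 by 1 measure. A cell counted as cycling with UMIs of at least 2 of 20 G2/M genes after thinning to 5000 UMIs. This held for 955 of 1235 members (77.3%, 74.9 to 79.6) and 5616 of 5950 Sox9-low cells (94.4%, 93.8 to 94.96), and without thinning for 89.6% and 98.1%. By tertile, it held for 87.7% of matrix-poor and 68.2% of matrix-rich members. Among distal cells the shares were 95.6% and 98.5%, and among proximal cells 72.1% and 88.4%. In dual-enSERT-2 every one of 45 members and of 2601 Sox9-low cells passed, so the measure could show no difference there. Free RNA can add to these shares, and its part was not tested.

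Pooled levels gave a narrower difference. The 20 S phase genes summed to 2329 against 3044 CPM in the first library and 2539 against 3240 CPM in the second. The G2/M genes summed to 3869 against 4012 CPM and, in the other direction, 6059 against 4122 CPM. None of the 20 S phase and 20 G2/M genes differed 2-fold in both libraries. Cdkn1c stood at 1513 against 604 CPM in the first library and 701 against 350.4 CPM in the second, just under the 2-fold limit in the second.

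Sox9 lies on chromosome 11 of GRCm39 from 112673009 to 112678586 on the plus strand, in a region with few genes. The noncoding gene BC006965 spans it on the minus strand (112554747 to 112693854) and stood at 24.7 against 1.44 CPM in the first library and 8.63 against 0.861 CPM in the second. The sources used here do not give whether counting used strand, so its reads cannot be told apart from those of Sox9. The noncoding 2610035D17Rik lies 256115 bases downstream of the end of Sox9 (112934701 to 113092731, minus strand) and does not overlap it. It stood at 192 against 17.8 CPM, a ratio of 10.8 (10.2 to 11.45), and at 80.0 against 18.3 CPM, 4.38 (3.55 to 5.37). In dual-enSERT-1 its level followed the Sox9 bins, at 17.2, 32.6, 55.3, 108, 219 and 362 CPM. Beyond it, within 1000000 bases of Sox9, lie 8 protein-coding genes. Their ratios ran from 0.573 (Sdk2) to 1.90 (Sstr2, 20 UMIs in members) in the first library and from 0.590 (Sdk2) to 2.47 (Sstr2, 2 UMIs) in the second. The nearest of them, the zinc transporter Slc39a11, had ratios of 1.17 and 0.698.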

How the data were processed

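Each of the 2 filtered matrices, as deposited by the authors, gives the count of UMIs for a feature in a barcode, in whole numbers. Per the file headers, Cell Ranger 7.0.1 made them. The submitters' processing notes instead list Cell Ranger 3.1.0, with Seurat 4 and the genome build mm39. The annotation release, and any use of intronic reads or strand, were not given in the sources used here. Of 56982 features, 56236 were found in GENCODE M39 (GRCm39), and 145 symbols shared by several features were kept apart by identifier. Columns of per-sample values that match no sample number 0.

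Groups of cells were set by counts in each barcode, and their UMIs were pooled per library into CPM. Genes of at least 20 CPM in either group of each library were compared by the log2 ratio with 1 CPM added. The genes that chose the cells were left out. Genes were named by rank, up to 15 per direction, by the smaller of the differences, which had to reach 0.58 (log2). The members and the 27 gene lists were chosen with earlier results of these data known. With 1 library per genotype no test was run. Intervals are exact Poisson or Clopper-Pearson 95% intervals. Depth is given with the libraries in the report, and UMI totals limit the precision of low genes, most in the 45 cells of dual-enSERT-2. Positions and cycling used cells thinned to 5000 UMIs with seed 1, leaving out shallower ones.

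Doublets were called with Scrublet in Scanpy 1.11.5 (expected rate 8%) and kept, with removal as an alternative. Python 3.11.15, NumPy 2.4.6, SciPy 1.17.1, pandas 2.3.3 and matplotlib 3.10.9 were used. On counts simulated for condensation and Sox9-low cells with counting noise only, the procedure called 50 of 50 genes raised 4-fold and 48 of 50 lowered to 0.25-fold, among 6656 genes compared. Alternatives covered the filters, thresholds, doublets, depth, position, pseudocount and thinning. Promoters came from RefSeq (GRCm38.p6). Some genes that the naming rule or the lists would include are not reported here.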

Additional observations from a re-analysis of the deposited data

Results flagged for a closer look

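Several genes had opposite signs in the libraries when condensation cells were set against Sox9-low cells. Mef2c, Tgfb2 and Cdh2, given above, were among them, and Frzb and Meis2 are described here. Frzb, a secreted WNT antagonist, had a log2 difference of 0.71 in dual-enSERT-1, at 75.9 against 46.0 CPM. In dual-enSERT-2 its difference was -1.19, at 29.8 against 69.4 CPM. Meis2, a proximal limb factor, had a difference of -0.68 in the first library, at 122 against 196 CPM, and of 1.58 in the second, at 445 against 148 CPM. Sox9-low cells may hold Gsc or Barx2 RNA, which the members may not. Against Sox9-low cells without either, a choice made after seeing the data, Meis2 had differences of 0.14 and 1.85, so that its opposite signs were gone, and Frzb had 0.68 and -1.21. The difference between the libraries was not tested, and each library is 1 embryo.

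Barcodes outside the mesenchyme gate also met the Sox9, matrix and Gsc or Barx2 conditions. The first library, dual-enSERT-1, had 351 of them and the second had 8. Of the 351, 190 had under 2 Prrx1 UMIs and 172 had a UMI of Epcam, Cdh5, Lbx1 or Csf1r. They entered no comparison.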

How the results depend on the processing

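No paired analysis was possible because each group has 1 library. Of the 63 higher and 47 lower genes, all were called again with doublets removed or with no CPM filter, and 56 and 34 with Sox9-low cells matched on depth. With Sox9 of at least 8 per 10000, 1 cell of dual-enSERT-2 is left, so values there rest on that cell. The gene counts were then 106 higher and 86 lower, the shares 4.91% and 0.0267%, the eGFP ratios 0.177 and 0, and the mCherry ratios 0.123 and 0. The smaller log2 difference changed sign for Sned1 (-2.31), Fibin (-1.43), Bmpr1b (-4.85), Tbx18 (-4.93), Cadm2 (-2.76) and 2610035D17Rik (-4.27), and that of Bmp4 was -0.81.

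With at least 6 matrix UMIs, 115 genes were higher, the shares were 5.78% and 0.187%, mCherry had a ratio of 0.273 in dual-enSERT-1, both reporters had no UMI in dual-enSERT-2 (ratios of 0), and Sgcz changed sign (0.19). With the rule applied at 5000 UMIs, the mCherry ratios were 0.161 and 0, the share in dual-enSERT-2 was 0.531%, and Nkd2 stood at -0.81. Without doublets the reporter ratios of dual-enSERT-1 were 0.224 (eGFP) and 0.172 (mCherry). Reweighting by position left 42 genes higher and 26 lower. No CPM filter gave 174 higher and 111 lower. Choices made after seeing the data gave 39 higher with no matrix threshold, 207 higher and 82 lower in dual-enSERT-1 alone, and 155 and 146 in dual-enSERT-2 alone. Asking for 2 UMIs for a position gave 188 higher and 329 lower in distal members. Between matrix-rich and matrix-poor cells in both libraries, a pseudocount of 5 CPM left 5 lower, and a split into 2 groups instead of 3 gave 7 higher and 2 lower. The cycling share of dual-enSERT-1 members was 62.4% at 2000 UMIs, 90.5% with 1 gene and 66.9% with 3 genes. The cause of these shifts was not tested. Against Sox9-low cells without Gsc or Barx2 (also chosen after seeing the data) the eGFP ratio of dual-enSERT-1 was 0.266. The other 44 values of counts, shares and ratios under an alternative stayed within 1.5 times of a count or within the counting interval of a share or ratio. That interval is wide in dual-enSERT-2, where the eGFP ratio was 0.183 with the rule applied at 5000 UMIs. In the remaining 350 values the named genes had the same direction and a difference of at least 2-fold.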
